A study of Homo sapiens with 2 samples.

Results

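The genes described here encode the proteins of the cytosolic ribosome. They were taken from both count tables by symbol: RPL or RPS followed by a number and an optional letter or paralog ending, together with RPLP0, RPLP1, RPLP2 and RPSA. The rule found 82 of the 16387 genes that the tables share, and 84 in either table. RPL10L and RPL3L were listed in library 1 alone, with 1 and 3 UMIs (unique molecular identifiers, each standing for 1 captured transcript), and were not analysed further. All 82 genes passed the filter on low counts. The set contains 46 large-subunit genes, 31 small-subunit genes and 5 paralogs that resemble another gene of the set: RPL22L1, RPL26L1, RPL39L, RPL7L1 and RPS27L. The 82 genes lie on 21 chromosomes, with 12 on chromosome 19. The tables also hold readthrough genes that overlap RPL17 and RPS10, so the counts of RPL17 and RPS10 are uncertain, as are those of any member whose reads could be split with a near-identical copy elsewhere in the genome.

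The cytosolic ribosome joins a small subunit, which reads the mRNA, to a large subunit, which forms the peptide bonds. Each ribosomal protein is needed in a fixed amount, and most of their mRNAs start with a C and a run of pyrimidines, the terminal oligopyrimidine or TOP motif, through which mTORC1, a kinase complex downstream of PI3K, controls their translation. New ribosomal proteins are carried by chaperones to the nucleolus, where assembly factors join them to ribosomal RNA.

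Single MCF10A cells, a non-transformed human breast epithelial line, were stimulated with the growth factor EGF. They were sampled at 0 h and after 15, 20 and 30 h of EGF alone. In other dishes a MEK inhibitor, acting in the ERK pathway, or a PI3K inhibitor was added 15 h after EGF, and cells were taken at 20 h or 30 h, after 5 h or 15 h with the inhibitor. The sources used here name neither the inhibitors nor their doses. All 8 conditions were tagged and pooled within each of 2 libraries, 1 for each biological replicate, which gives 16 sums of counts.

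The libraries held 2616 and 2221 cells and 33089090 and 28542571 UMIs, and shared 0 cell barcodes. Cells per condition ran from 175 to 488 in library 1 and from 29 to 616 in library 2. The 0 h sum of library 2 stands apart: it rests on 29 cells, 22 of which were above the median for S phase or G2/M transcripts, against 15 of 175 in library 1. Its UMIs held 0.0816% of G2/M transcripts, against 0.0166% in library 1. The numbers of members called against 0 h are therefore given also without each of these sums. Values of single genes and of gene lists against 0 h are given with both sums only. Basal keratins were among the high markers (KRT14 at 8883 and 10530 CPM, counts scaled to a common library size). PTPRC, CD3E, VWF, CDH5, PDGFRA, COL1A2 and HBB, which define immune, endothelial, stromal and red cells, were not listed. Other markers of these cells were listed: DCN was at 24.5 and 13.9 CPM, CD14 at 14.2 and 9.53 CPM, and COL1A1, LYZ, PECAM1, KDR and HBA1 at 1.61 CPM or less in both libraries. The luminal keratin KRT18 was at 422 and 452 CPM and KRT8 at 63.4 and 100.2 CPM. Of the other luminal markers, CDH1 was at 16.4 and 27.6 CPM and EPCAM at 2.75 and 8.06 CPM. The basal marker TP63 was at 10.1 and 13.6 CPM.

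The TOP motif is shown here because it is the sequence the members share and the rule did not use. RefSeq promoter entries (GRCh38.p14) matched 66 of the 82 genes. In 43 of the 66 (65.2%) the annotated start was a C followed by at least 4 pyrimidines, against 4.04% of all 27305 promoters in the table and 5.7% of the 8727 tested genes with an entry. Such a run began within 10 bases of the start in 84.8% of the members and 33.3% of all promoters. The windows below run from 15 bases before the annotated start to 14 bases after it, 5′ to 3′. Capitals mark the pyrimidine run at or nearest to the start.
RPLP1, chr15:69452803-69452832, + strand: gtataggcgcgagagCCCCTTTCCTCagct
RPLP0, chr12:120201097-120201126, - strand: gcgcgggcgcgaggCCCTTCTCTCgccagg
RPS19, chr19:41860240-41860269, + strand: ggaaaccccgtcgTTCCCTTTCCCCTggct
RPS27, chr1:153990747-153990776, + strand: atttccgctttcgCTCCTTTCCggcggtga
RPL28, chr19:55385917-55385946, + strand: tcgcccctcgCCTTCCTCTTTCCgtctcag
RPL22, chr1:6199581-6199610, - strand: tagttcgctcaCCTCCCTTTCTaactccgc
RPL22L1, chr3:170870181-170870210, - strand: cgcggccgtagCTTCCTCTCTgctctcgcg
RPL26L1, chr5:172958714-172958743, + strand: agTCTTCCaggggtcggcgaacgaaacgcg
RPL7L1, chr6:42879601-42879630, + strand: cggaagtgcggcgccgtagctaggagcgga
RPS27L, chr15:63157463-63157492, - strand: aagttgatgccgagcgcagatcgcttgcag
Of the 4 paralogs shown, RPL22L1 has a run of 10 pyrimidines across its start, as RPL22 has with 11. RPL7L1 and RPS27L have none near the start, and the run of RPL26L1 lies upstream of it. Other motifs, searched on both strands of the whole window of 250 bases before to 50 after the start, were CCGGAAGT (16.7% of members, 4.44% of all promoters, 9.89% of tested genes with an entry) and AAGATGG (13.6%, 6.06% and 8.24%). GGGCGG was in 53% of members, above the 44.6% of all promoters but below the 71.8% of tested genes, and CACGTG in 6.06%, below both (7.43% and 10.5%). TATAAA, searched on the gene's strand 40 to 20 bases before the start, stood in 4.55% of members, 2.55% of all promoters and 1.54% of tested genes. These are matches of letters and were not tested as binding sites.

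Ribosomal protein genes gave between 22.4% and 34.5% of all UMIs. At 0 h the share was 34.5% in library 1 and 26.8% in library 2. EGF alone gave 30.0% and 23.7% after 15 h, 28.4% and 24.2% after 20 h, and 27.5% and 22.4% after 30 h. The 30 h EGF sum was thus the lowest of the 8 conditions in both libraries. MEK inhibition gave 29.6% and 25.9% after 20 h and 30.0% and 24.4% after 30 h. PI3K inhibition gave 32.6% and 27.4% after 20 h and 33.3% and 28.9% after 30 h. Library 1 was above library 2 in all 8 conditions, so the conditions overlap when the libraries are pooled. The mean was 30.7 ± 5.42% at 0 h (SD, n = 2 libraries), 24.96 ± 3.62% after 30 h of EGF, 27.2 ± 3.94% with the MEK inhibitor at 30 h and 31.1 ± 3.06% with the PI3K inhibitor at 30 h. These SDs include the offset between the libraries. Differences taken within each library had the same sign in both, except for 20 h against 15 h of EGF (-1.62 and 0.45 percentage points). For 30 h of EGF minus 0 h they were -6.97 and -4.43 percentage points. The PI3K inhibitor at 30 h was 5.75 and 6.55 points above EGF alone, and the MEK inhibitor at 30 h was 2.45 and 2.0 points above it. With 2 libraries a condition an exact permutation test of the share cannot go below p = 0.333, and none was made.

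**Figure D1:**
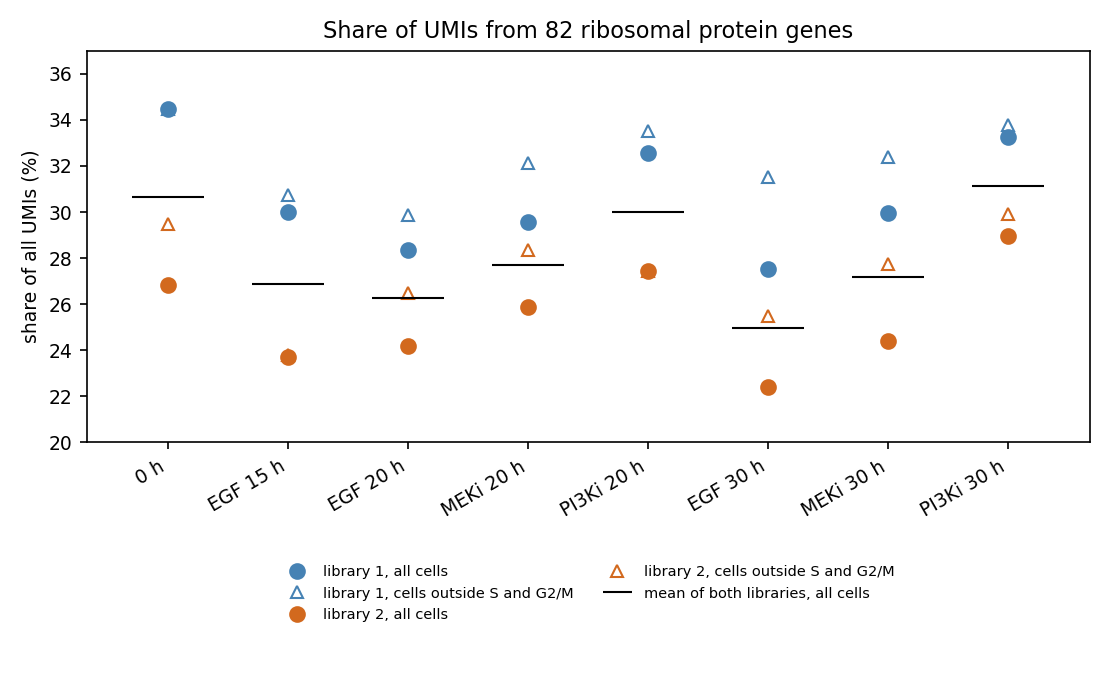
Share of all UMIs (%, y axis, from 20%) that came from the 82 ribosomal protein genes in each condition (x axis). Filled points are all cells of a library, open triangles the cells outside S and G2/M, and lines the mean of both libraries over all cells; EGF alone at 30 h is the lowest filled point of each library (27.5% and 22.4%).

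A share can differ because the members or because the other transcripts differ, so UMIs per cell are given beside it. The median cell held 2757 and 1960 ribosomal protein UMIs at 0 h in libraries 1 and 2, and 4374 and 3332 after 30 h of EGF. Over the same interval the UMIs of all other genes went from 5216 and 5169 to 11630 and 11910. Both quantities were thus higher with EGF, by 1.59 and 1.70 times for the members and by 2.23 and 2.30 times for the other genes, and the mean per cell was higher for 82 of 82 members in both libraries. With the PI3K inhibitor at 30 h the median cell held 4044 and 3503 ribosomal protein UMIs, 0.925 and 1.05 times the value with EGF alone, and 7920 and 8274 other UMIs, 0.681 and 0.695 times that value. With the MEK inhibitor at 30 h the ratios were 0.864 and 1.01 for the members and 0.717 and 0.843 for other genes. The inhibitor results below are therefore about relative level. In mean UMIs per cell, 24 of 82 members were higher and 19 lower in both libraries with the PI3K inhibitor at 30 h. Those higher included RPL12 (log2 differences per cell of 0.18 and 0.34), RPL10 (0.17 and 0.33) and RPLP0 (0.13 and 0.32), but the counts per cell were not tested. With the MEK inhibitor at 30 h 2 members were higher and 46 lower in both libraries. At 20 h 13 members were higher and 51 lower in both libraries with the PI3K inhibitor, and 0 and 2 with the MEK inhibitor. Mean UMIs per cell with the PI3K inhibitor at 20 h were 0.965 and 0.994 times those with EGF alone for the members. For the other genes they were 0.791 and 0.838 times those with EGF alone. UMIs per cell also depend on capture and sequencing depth, whose part was not tested.

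**Figure D2:**
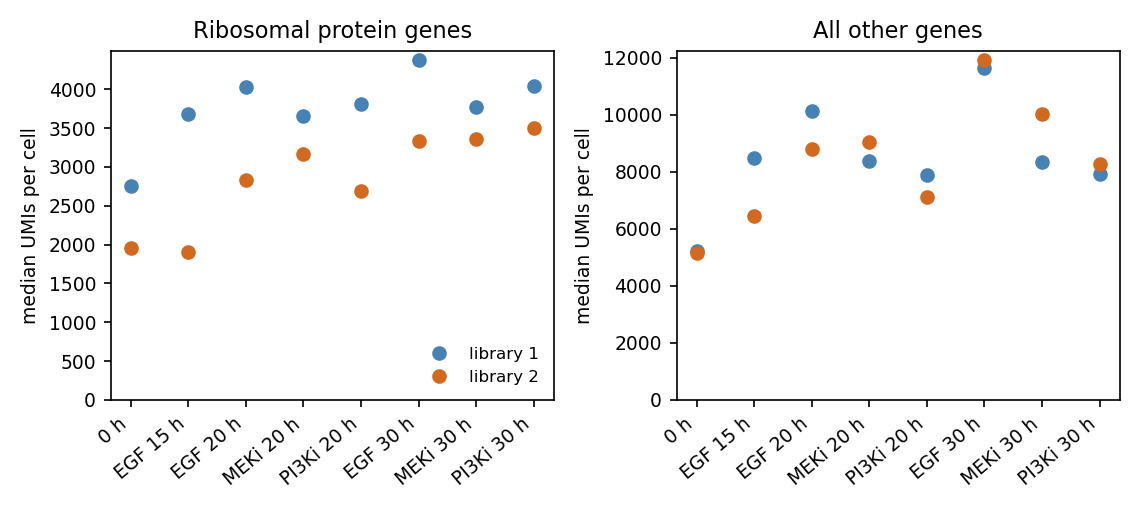
Median UMIs per cell (y axis, from 0) of the ribosomal protein genes (left) and of all other genes (right) in each condition, with 1 point per library. With EGF at 30 h both panels are above 0 h; with either inhibitor the right panel falls to 10040 or less at 30 h while the left stays between 3360 and 4044.

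Ribosomal protein genes fell in relative level after EGF. Changes were tested for each gene on the 16 sums with edgeR's quasi-likelihood test, with the library as a block and Benjamini-Hochberg adjustment over 11147 genes. Log2 differences are on the scale of CPM after TMM scaling, on which the median of all genes lay between -0.01 and 0.02 in the 12 comparisons. After 15 h of EGF, 56 of 82 members were lower than at 0 h and 1 was higher, with a median log2 difference of -0.31 (0.807-fold), whereas 13.9% of all genes tested were lower and 14.1% higher. From 15 h to 20 h no member passed (median -0.08; 3 at an unadjusted p under 0.05, and 0 adjusted calls by DESeq2), against 5.1% of all genes. From 20 h to 30 h the only member called was RPL39L (7.79% of all genes; 0 members by DESeq2, 4 at an unadjusted p under 0.05 in edgeR), and leaving out any of the 4 sums gave 0. After 30 h of EGF, 75 of 82 members were lower than at 0 h and 3 higher (16.2% and 17.6% of all genes), with a median of -0.48 (0.716-fold), and 76 were lower in both libraries. The medians within libraries 1 and 2 were -0.56 and -0.36. Without the block the same medians (-0.32 and -0.49) gave 0 members lower at either time, with 2 and 19 members at an unadjusted p under 0.05. Without the 0 h sum of library 1 the numbers lower were 11 at 15 h and 44 at 30 h, with 1 member higher at 30 h, and without the 15 h sum of library 2 there were 32 lower at 15 h. Without the 0 h sum of library 2, the sum of 29 cells, they were 70 and 74. Scaling by library totals moved the median of all genes by 0.21 at 15 h and 0.28 at 30 h. On that scale the members' medians were -0.16 and -0.27, still below 0, with 34 lower and 4 higher at 15 h.

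RPS27, a zinc-binding small-subunit protein, was at 7801 and 4218 CPM in libraries 1 and 2 at 0 h, at 5183 and 3000 after 15 h of EGF and at 4102 and 2452 after 30 h. The 30 h sums were both below the 0 h sums. Its log2 difference was -0.55 ± 0.09 (SE; adjusted p = 6.2e-06, edgeR) at 15 h and -0.87 ± 0.09 (adjusted p = 7.4e-11) at 30 h, the largest fall of any member. RPS19, the small-subunit gene most often mutated in Diamond-Blackfan anaemia, was at 14510 and 8352 CPM at 0 h and at 8246 and 5344 after 30 h, a difference of -0.74 ± 0.10 (adjusted p = 1e-08, edgeR). RPS9, RPL29 and RPS2, chosen by the same rule at 15 h, fell by 0.62, 0.58 and 0.50 on the log2 scale. RPL39, a short protein that lines the exit tunnel, and RPL29 fell by 0.74 and 0.75 at 30 h.

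The stalk of the large subunit, which recruits the elongation factors, is built from RPLP0, RPLP1 and RPLP2. RPLP1 was at 16520 and 8631 CPM at 0 h, 11050 and 6990 at 15 h and 9270 and 6518 at 30 h. RPLP0 was at 6470 and 3498 CPM at 0 h and at 3705 and 2484 at 30 h. For both genes the 30 h value of library 1 exceeded the 0 h value of library 2, so the groups overlap unless compared within a library. The differences at 30 h were -0.68 ± 0.10 for RPLP0, -0.64 ± 0.10 for RPLP1 and -0.48 ± 0.09 for RPLP2, and all passed at both times. RPL5 and RPL11, which bind the 5S ribosomal RNA and can hold MDM2, the ligase that degrades p53, fell by 0.42 and 0.43 at 30 h. RPL11 but not RPL5 passed at 15 h (-0.32 ± 0.10, adjusted p = 0.0085, against -0.21 ± 0.10, adjusted p = 0.1, edgeR); the difference between the genes was not tested. RPS6, the substrate of the S6 kinases, RPS27A, made as a fusion with ubiquitin, and RPSA, also known as the laminin receptor precursor, had differences of -0.36, -0.42 and -0.25 at 30 h, all past the threshold.

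Members that did not pass at 30 h included RPL35 (0.02 ± 0.09), RPL27 (-0.20 ± 0.10) and RPL7L1 (0.10 ± 0.16). RPL35, which sits at the tunnel exit, was at 2763 and 1899 CPM at 0 h and at 2726 and 2012 after 30 h of EGF. It passed in none of the comparisons shown in the plot of log2 differences by comparison, where it lies between 0.02 and 0.13.

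**Figure D3:**
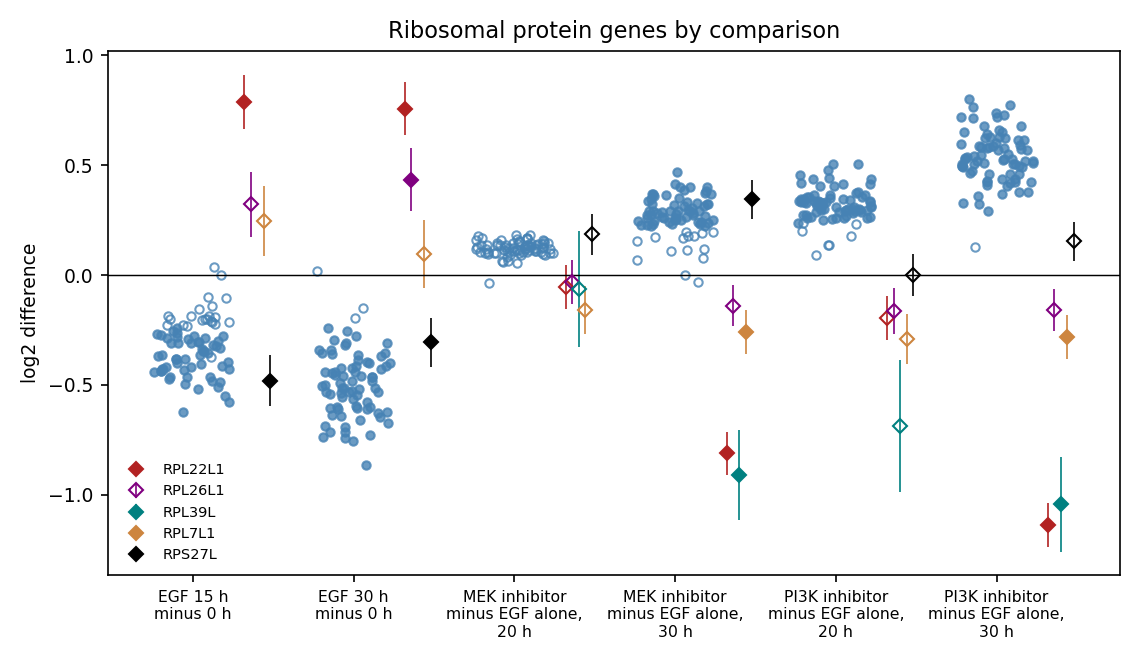
Log2 difference (y axis) of each ribosomal protein gene in 6 comparisons (x axis). Circles are the 77 members that are not paralogs, diamonds the 5 paralogs with their SE; filled symbols passed the test, and RPL39L is left out against 0 h, where it had 3 UMIs and 0. Most circles lie below 0 after EGF and above 0 with either inhibitor at 30 h, with RPL35 between 0.02 and 0.13 in each of the 6, while RPL22L1 and RPL39L lie on the other side.

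With the MEK inhibitor the members did not pass at 20 h and were mostly higher at 30 h. After 5 h with the inhibitor no member passed in edgeR, with 0 at an unadjusted p under 0.05 and 0 adjusted calls by DESeq2, against 11.9% of all genes. The median was 0.12, and 77 of 82 members were above 0 in both libraries. A fit on the compared conditions alone called 33. After 15 h with the inhibitor 63 of 82 members rose and 3 fell, where 18.9% of all genes rose and 19% fell, with a median log2 difference of 0.27 (1.20-fold) and medians of 0.26 and 0.29 in the libraries. The number that rose depended on each of the 4 sums: it was 22 without EGF alone of library 1, 14 without EGF alone of library 2, 28 without the inhibitor sum of library 1 and 22 without that of library 2. It was 0 without the block (2 members at an unadjusted p under 0.05) and 15 when scaled by library totals, which moved the median of all genes by -0.16 and left the members' median at 0.09.

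By size, the rises with the MEK inhibitor at 30 h were led by RPS19, from 8246 and 5344 CPM with EGF alone to 11350 and 7423 (0.47 ± 0.09, adjusted p = 6e-05, edgeR). The groups overlap, since the inhibitor sum of library 2 was below the EGF sum of library 1, but the log2 differences within the libraries were 0.46 and 0.47. RPS27 followed (0.41), then RPS12 and RPL28 (0.40 each), RPLP1 (0.40) and RPLP0 (0.39). RPL5 did not pass (0.12 ± 0.09, adjusted p = 0.31), and RPL11 did (0.29 ± 0.09, adjusted p = 0.0094; both edgeR). RPL17, a tunnel-wall protein, was at 79.7 and 59.4 CPM with EGF alone and at 79.9 and 59.3 with the inhibitor, a log2 difference of 0.00 ± 0.10.

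With the PI3K inhibitor most members rose in relative level at both times. After 5 h with the inhibitor 70 of 82 rose and 0 fell, against 11.4% and 11.9% of all genes, with a median of 0.31 (1.24-fold). RPL12, a protein at the stalk base, rose from 3456 and 2191 CPM with EGF alone to 5060 and 3014 (0.51 ± 0.09, adjusted p = 1.9e-05, edgeR). RPS9, RPL10A, RPL28, RPL3 and RPS20 followed with 0.50, 0.48, 0.46, 0.44 and 0.44. Of the 12 members that did not pass, 5 were the paralogs. The count again depended on the sums: it was 9 without EGF alone of library 1, 46 without EGF alone of library 2, 18 without the inhibitor sum of library 1 and 27 without that of library 2. Scaling by library totals, which moved the median of all genes by -0.14, gave 37 higher and 4 lower, with a members' median of 0.17.

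After 15 h with the PI3K inhibitor 76 of 82 members rose and 3 fell, against 19.7% and 20% of all genes, with a median of 0.52 (1.44-fold) and library medians of 0.46 and 0.58. Leaving out any of the 4 sums left 71 to 76. RPL28 was at 5489 and 3769 CPM with EGF alone and at 9222 and 6795 with the inhibitor, so that the groups did not overlap (0.80 ± 0.09, adjusted p = 6.2e-10, edgeR). RPL12 rose from 3170 and 1877 CPM to 5191 and 3347 (0.77 ± 0.09). RPL10, which completes the large subunit in the cytoplasm, RPLP0, RPS20 and RPS27 rose by 0.76, 0.74, 0.73 and 0.72. RPLP0 went from 3705 and 2484 CPM to 5869 and 4357, again without overlap. RPL5 and RPL11 both passed (0.49 and 0.46), as did RPS6 (0.54), RPSA (0.50), RPS27A (0.42) and RPS19 (0.58). Scaling by library totals moved the median of all genes by -0.22 and left the members' median at 0.29. Without the block 0 members rose, at either time (1 and 20 members at an unadjusted p under 0.05 in either direction), while the fall of RPL22L1 and RPL39L at 30 h still passed.

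Set directly against the PI3K inhibitor, the MEK inhibitor gave lower levels of many members. At 20 h 14 of 82 were lower with the MEK inhibitor and 0 higher, where 10.4% and 11.2% of all genes were, and the median was -0.19. The count was 0 without the library 1 sum of either inhibitor, 12 without the MEK inhibitor sum of library 2 and 2 without the PI3K inhibitor sum of library 2, and 26 by DESeq2. At 30 h 53 of 82 were lower and 1 higher, against 20.3% and 21.2% of all genes, with a median of -0.26. Without the MEK inhibitor sum of library 1 or 2 the number lower was 29 or 31, without the PI3K inhibitor sum of library 2 it was 22, and without the block it was 0 (1 member at an unadjusted p under 0.05). RPL17 had the largest difference at 30 h: 79.9 and 59.3 CPM under MEK inhibition against 111 and 88.0 under PI3K inhibition (-0.53 ± 0.10, adjusted p = 2e-05, edgeR). The counts of RPL17 are uncertain, because a readthrough gene overlaps it. RPL12 and RPL23 followed with -0.48 and -0.47. RPL17, RPL12 and RPS9 also led at 20 h, with -0.37, -0.37 and -0.35. RPLP1 (-0.19 ± 0.10), RPS19 (-0.12 ± 0.09), RPS27A (-0.09 ± 0.09) and RPL11 (-0.17 ± 0.09) did not pass at 30 h. These comparisons share sums with those against EGF alone.

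Of the 5 paralogs 3 rose and 1 fell after 30 h of EGF (17.6% and 16.2% of all genes). At 30 h 3 fell with each inhibitor (19% of all genes with the MEK and 20% with the PI3K inhibitor). With the MEK inhibitor 1 rose (18.9% of all genes). RPL22L1, which can take the place of RPL22 in the large subunit, stood at 422 and 411 CPM in 0 h cells, 810 and 574 in cells with 15 h of EGF and 732 and 635 in those with 30 h. With the PI3K inhibitor at 30 h it was at 306 and 310 CPM, and with the MEK inhibitor at 378 and 392. These EGF sums at 15 h and 30 h were above the 0 h sums and the 30 h inhibitor sums without overlap. At 20 h the sums of either inhibitor overlapped those of EGF alone. It rose by 0.79 ± 0.12 at 15 h and 0.76 ± 0.12 at 30 h (adjusted p = 1.5e-06 for both, edgeR), and at 30 h it fell by 0.81 with the MEK inhibitor (adjusted p = 2.3e-09) and by 1.14 with the PI3K inhibitor (adjusted p = 1.4e-13). These 4 calls also passed without the block, with adjusted p from 0.00086 to 0.025. RPL22 itself moved the other way, by -0.36, -0.40, 0.28 and 0.44 in the same 4 comparisons. Counted per 100 RPL22 UMIs, RPL22L1 gave 19.7 and 36.8 at 0 h, 52.2 and 56.9 at 15 h, and 50.5 and 60.7 with EGF alone at 30 h. It gave 21.7 and 30.7 under 15 h of MEK inhibition and 16.1 and 21.3 under 15 h of PI3K inhibition. At 20 h the inhibitor values, 43.5 and 45.0 with the MEK and 36.5 and 36.8 with the PI3K inhibitor, were closer to the 49.4 and 51.2 of EGF alone.

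The change of the inhibitor effect from 20 h to 30 h was tested as an interaction. RPL22L1 was the 1 member that passed, for the MEK inhibitor (-0.76 ± 0.14, adjusted p = 0.0002, edgeR; 5.58% of all genes passed in either direction) and for the PI3K inhibitor (-0.94 ± 0.14, adjusted p = 5.2e-06; 5.65% of all genes). Without the block neither passed (adjusted p = 0.39 and 0.25). For the other members the PI3K inhibitor interaction was above 0 in both libraries in 73 of 82, with a median of 0.21. DESeq2 called 10 members there.

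RPL39L, a paralog of RPL39 best known from the testis, had 3 and 0 UMIs at 0 h, and at 30 h 62 and 103 with EGF alone, 34 and 82 under MEK inhibition and 22 and 63 under PI3K inhibition. It was called higher after 30 h of EGF (adjusted p = 0.00018, edgeR), but no fold is given against so few counts. Its falls at 30 h were 0.91 ± 0.20 with the MEK inhibitor and 1.04 ± 0.21 with the PI3K inhibitor. RPL26L1 rose by 0.43 ± 0.14 after 30 h of EGF and did not pass with either inhibitor. It gave 2.39 and 2.66 UMIs per 100 of RPL26 at 0 h and 5.11 and 5.71 after 30 h. RPL7L1, a nucleolar assembly factor by function and not known as a subunit of the mature ribosome, fell at 30 h with the MEK (-0.26 ± 0.10) and the PI3K inhibitor (-0.28 ± 0.10). Both falls were lost without the block, and in cells outside S and G2/M the differences were 0.005 and 0.029. RPS27L, a p53 target, moved in the direction of RPS27 in 3 comparisons: it fell after 15 h (-0.48 ± 0.12) and 30 h of EGF (-0.31) and rose with the MEK inhibitor at 30 h (0.34 ± 0.09). It did not pass with the PI3K inhibitor at 30 h (0.15 ± 0.09), where RPS27 rose. The 5 paralogs together gave 0.0768% to 0.135% of all UMIs, so the summed share rests on the other 77 genes.

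**Figure D4:**
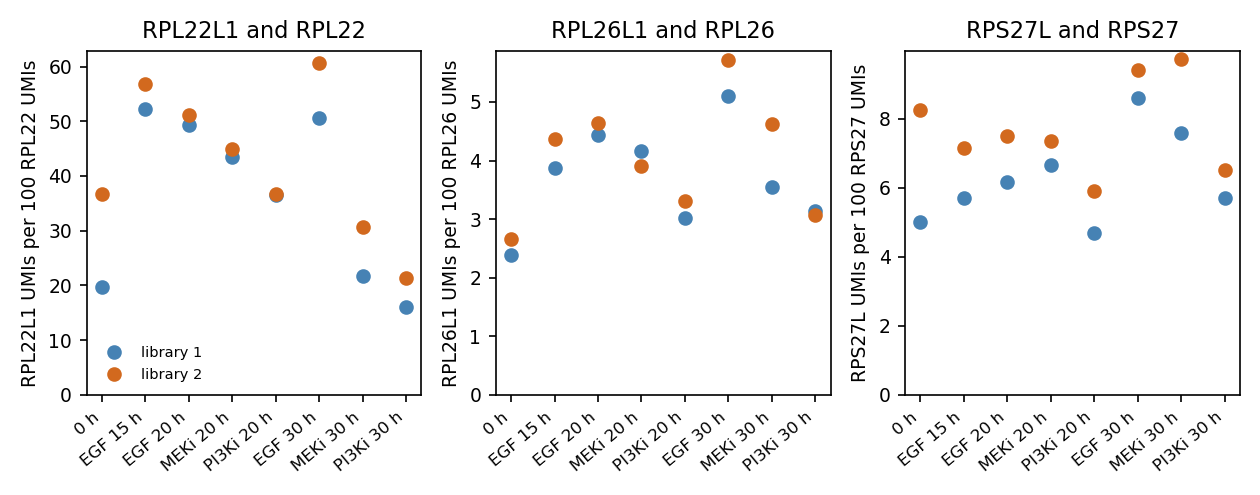
UMIs of 3 paralogs per 100 UMIs of the gene each resembles (y axes, from 0, each panel with its own scale) in the 8 conditions, with 1 point per library. RPL22L1 is highest with EGF alone at 30 h (50.5 and 60.7) or, in library 1, at 15 h (52.2), and lowest with the PI3K inhibitor at 30 h (16.1 and 21.3).

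Most genes of both subunits moved in 1 direction in each comparison. After 30 h of EGF 30 of 31 small-subunit and 44 of 46 large-subunit genes fell, with medians of -0.52 and -0.49. With the PI3K inhibitor at 30 h 31 of 31 and 45 of 46 rose, with medians of 0.52 and 0.53, and with the MEK inhibitor 27 of 31 and 35 of 46, with medians of 0.28 and 0.27. The ratio of large-subunit to small-subunit UMIs lay between 1.27 and 1.32 in the 16 sums. At 30 h it was 1.29 and 1.30 with EGF alone and 1.27 and 1.28 with the MEK inhibitor. Members with and without a TOP run at the annotated start also overlapped. The class without one includes members whose run begins within 10 bases of the start, such as RPL9 and RPL4. It is therefore not a class of genes that lack the motif. With the PI3K inhibitor at 30 h 41 of the 43 with a run rose, with a median of 0.54, as did 20 of the 23 without, with a median of 0.46. After 30 h of EGF the medians were -0.51 and -0.44. Neither the difference between the subunits nor that between these classes was tested.

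Genes that work with the ribosomal proteins split into groups that moved with them and groups that moved against them. Of the other ribosome constituents, FAU and RACK1 fell after 30 h of EGF (-0.33 and -0.50) and rose with the PI3K inhibitor at 30 h (0.32 and 0.58). RPL36AL passed in neither. Of 17 translation factors, 12 fell and 1 rose after 30 h of EGF (16.2% and 17.6% of all genes). With the PI3K inhibitor at 30 h 16 rose and 0 fell (19.7% and 20% of all genes). EEF1A1, the elongation factor that brings tRNA to the ribosome, changed by -0.86 and 0.64, EEF2, which moves the ribosome along, by -1.17 and 1.15, and the helicase EIF4A2 by -1.39 and 1.52. With the MEK inhibitor 8 of 17 rose and 2 fell, with 4 and 4 under scaling by library totals. EIF4A1, the paralog of EIF4A2, rose with EGF (0.38) and fell with the MEK inhibitor (-0.45), and it rose with the PI3K inhibitor (0.39). Of 10 other genes known for TOP mRNAs 8 were tested. Of these, 4 fell and 2 rose after 30 h of EGF (16.2% and 17.6% of all genes), and 6 rose and 1 fell with the PI3K inhibitor at 30 h. TPT1 changed by -0.78 and 0.81 in these comparisons. With the MEK inhibitor at 30 h 2 rose, SNHG8 and TPT1, and 2 fell, NPM1 and VIM, where 18.9% and 19% of all genes did.

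The genes that build ribosomes moved in the opposite direction. Of 18 biogenesis factors, 13 rose and 0 fell after 15 h of EGF (median 0.79), and 15 fell and 0 rose with the MEK inhibitor at 30 h (median -0.72), as did 12 with the PI3K inhibitor (median -0.44). NOP16 rose by 1.01 ± 0.17 after 15 h of EGF and fell by 0.81 with the MEK and by 1.04 with the PI3K inhibitor. NCL, or nucleolin, rose by 0.78 and fell by 0.88 and 0.39. Of 6 chaperones of single ribosomal proteins, 3 rose after 15 h of EGF and none fell, and 5 and 4 fell with the MEK and PI3K inhibitors at 30 h. LTV1, which escorts RPS3 and RPS20, rose by 1.19 and fell by 0.85 and 0.92. Of 77 mitochondrial ribosomal protein genes 34 rose and 2 fell after 30 h of EGF (17.6% and 16.2% of all genes). With the MEK and PI3K inhibitors at 30 h 30 and 34 fell and 3 rose. Medians for the biogenesis factors, chaperones and mitochondrial ribosomal proteins kept their sign under scaling by library totals in these comparisons. Transcripts of the mTORC1 pathway split by gene. EIF4EBP1, the repressor that mTORC1 inactivates, rose by 2.24 after 15 h of EGF and fell by 1.75 with the MEK and by 0.70 with the PI3K inhibitor. MYC, a driver of ribosome synthesis, fell by 1.08 with the MEK inhibitor and rose by 0.61 with the PI3K inhibitor. MDM2, which RPL5 and RPL11 bind, fell after 15 h of EGF (-0.76) and passed at 30 h with neither inhibitor; CDKN1A did not pass in those 3 comparisons.

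**Figure D5:**
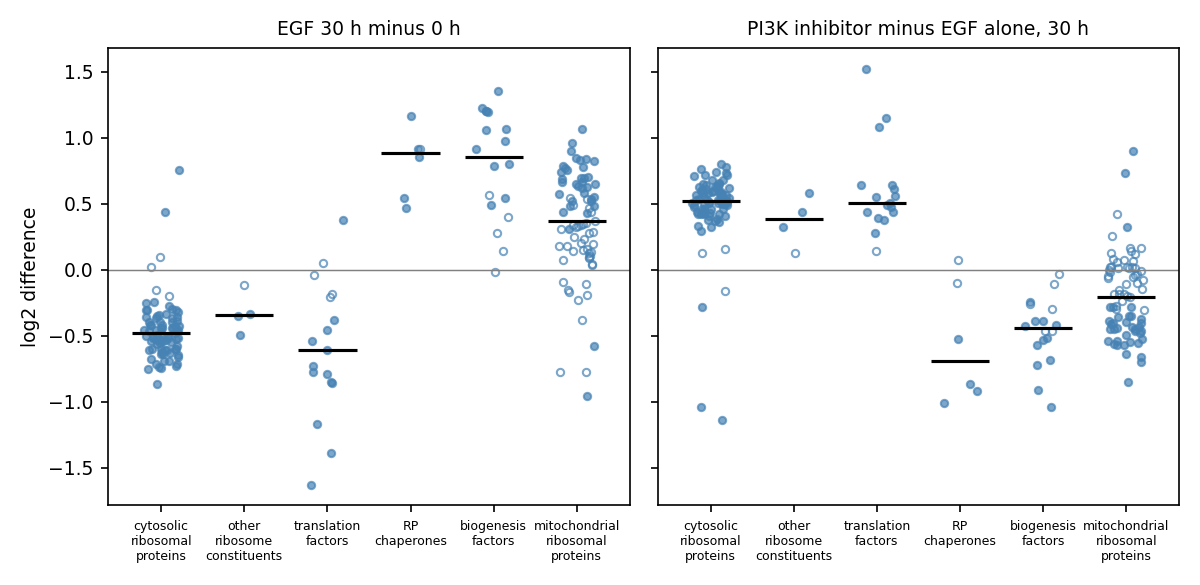
Log2 difference (y axis) of single genes after 30 h of EGF against 0 h (left) and with the PI3K inhibitor against EGF alone at 30 h (right), by gene list (x axis); filled points passed the test, lines are medians over the points drawn, and RPL39L is left out at the left. Most cytosolic ribosomal proteins and translation factors lie below 0 at the left and above it at the right, while chaperones, biogenesis factors and mitochondrial ribosomal proteins have medians on the other side.

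Cell cycle transcripts changed in the comparisons at 30 h given here, apart from those of G2/M with the MEK inhibitor. Other comparisons differed. After 15 h of EGF 14 of 20 S phase but 1 of 20 G2/M transcripts were higher (14.1% of all genes). Of the members 56 of 82 were lower there. From 15 h to 20 h and from 20 h to 30 h all 20 G2/M transcripts rose, while 0 and 1 members passed. Of all genes 5.1% and 7.79% passed in either direction. All 20 G2/M transcripts were higher after 30 h of EGF than at 0 h, and all 20 were lower with the PI3K inhibitor at 30 h, while with the MEK inhibitor 5 were higher and 2 lower (median 0.03), where 18.9% and 19% of all genes were. S phase transcripts rose after 30 h of EGF (17 of 20) and fell at 30 h with the MEK and the PI3K inhibitor (18 of 20 each). In single cells the share of ribosomal protein UMIs was lower where the G2/M share was higher: within conditions Spearman's rho, over 29 to 616 cells that share a library and a depth range, lay between -0.63 and -0.02. The fit was repeated on cells below the median for both kinds of transcript, which number 7 to 296 per sum, with 7 in the 0 h sum of library 2. There the members' median was -0.16 for 30 h of EGF, with 2 lower, 0.26 for the PI3K inhibitor at 30 h, with 6 higher, and 0.22 for the MEK inhibitor at 30 h, with 0 higher (15 at an unadjusted p under 0.05 in either direction). These 3 medians kept the sign they had over all cells and were smaller. In these cells the share after 30 h of EGF was 31.5% and 25.5% in the libraries, with the PI3K inhibitor 33.8% and 29.9%, and with the MEK inhibitor 32.4% and 27.7%. RPL22L1 changed in these cells as in all cells: 0.67 after 30 h of EGF (adjusted p = 0.003, edgeR), -0.69 with the MEK inhibitor (adjusted p = 0.00031) and -1.07 with the PI3K inhibitor (adjusted p = 4e-09).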

How the data were processed

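The deposited tables give a raw UMI count for each cell and gene symbol, in whole numbers that the authors had not normalised. Cell Ranger 3.0.2, Seurat and GRCh38 are named per the submitters' processing notes; the sources used here do not give the annotation release, the strand setting or the cell filter. Cells of each condition came from the deposited tag calls. These mark 4848 of 8641 barcodes in library 1 and 2478 of 6161 in library 2 as tag doublets. The count tables leave those barcodes out, and same-tag doublets cannot be seen. The counts of each condition were added up within each library and fitted with edgeR 4.0.16 on R 4.3.3 (filterByExpr, TMM, quasi-likelihood F test, library as a block, adjusted p under 0.05 over 11147 genes). All 16 sums shared 1 estimate of the spread (7 residual degrees of freedom). The block comes from the labels, which pool all conditions of a replicate in 1 library; deviations of conditions in the same library correlated with a median r of 0.588 over 28 pairs (0.281 to 0.677). DESeq2 1.42.0 was an alternative.

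The members and gene lists were chosen with earlier results of these data known. Named genes are those past the threshold with the same sign in both libraries: the 6 largest each way for the inhibitors and for 15 h of EGF, and the 3 largest elsewhere, plus the paralogs, the stalk, RPL5, RPL11, RPS6, RPSA, RPS27A and RPS19. RPL35, RPL27 and RPL17 were also named after their values were seen. Some genes are not reported here. S phase and G2/M status is a cell's share of UMIs in a list of 20 genes each, above or below the median over cells. Start-site sequences are from RefSeq. Members on chromosome 8 were analysed but none of their sequence is shown.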

Additional observations from a re-analysis of the deposited data

Results flagged for a closer look

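The effect of each inhibitor on RPL22L1 differed between the 2 times by a test of the difference itself. For the MEK inhibitor the effect at 30 h minus that at 20 h was -0.757 on the log2 scale (adjusted p = 0.0002, edgeR), with -0.85 and -0.70 in the libraries. For the PI3K inhibitor it was -0.941 (adjusted p = 5.2e-06), with -1.08 and -0.81. Both results share the sums of EGF alone. Without the library block neither passed, and in cells outside S and G2/M the values were -0.56 (adjusted p = 0.4) and -0.74 (adjusted p = 0.043). No cause was tested.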

How the results depend on the processing

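The sign of the members' median held under each scaling, filter, tool and set of sums tried, except in cells outside S and G2/M. There the medians of 20 h against 15 h of EGF (0.072), of 30 h against 20 h (0.045) and of the MEK against the PI3K inhibitor at 20 h (0.026) reversed, as did RPL7L1 at 30 h with the MEK (0.005) and the PI3K inhibitor (0.029). Counts of calls moved more, and the cause was not tested. Without the replicate block, which takes out the offset between libraries, edgeR called 0 members lower after 15 h and 30 h of EGF, 0 higher with the MEK inhibitor at 30 h and with the PI3K inhibitor at both times, 0 either way between the inhibitors at both times, and 0 for 30 h against 20 h and for both interactions (0 to 20 members at an unadjusted p under 0.05). In cells outside S and G2/M 23 were lower at 15 h and 2 at 30 h, 0 were higher with the MEK inhibitor at 30 h, and the PI3K inhibitor gave 1 higher and 1 lower at 20 h and 6 higher at 30 h. Between the inhibitors 1 was higher and 0 lower at 20 h and 0 lower at 30 h in those cells, with 0 for 30 h against 20 h and for the MEK interaction. Library totals gave 4 higher and 34 lower at 15 h, 15 higher and 5 lower with the MEK inhibitor at 30 h, 37 higher and 4 lower at 20 h with the PI3K inhibitor, and 1 and 2 higher between the inhibitors at 20 h and 30 h. Scaling without the members gave 1 lower with the PI3K inhibitor at 20 h. DESeq2 called 26 lower between the inhibitors at 20 h, 10 in the PI3K interaction and 0 for 30 h against 20 h. Without the deepest 10% of cells 8 were lower between the inhibitors at 20 h and 0 passed for 30 h against 20 h. Fits on only the compared conditions, with fewer sums, called 9 for 30 h against 20 h, 33 with the MEK inhibitor at 20 h, 2 lower with the PI3K inhibitor at 20 h, 52 lower at 20 h and 2 higher at 30 h between the inhibitors, and 2 and 24 in the MEK and PI3K interactions. Leaving out 1 sum, with the lone sum assumed to vary like the others, gave 11 to 70 lower at 15 h, 44 to 74 lower and 1 to 3 higher at 30 h, 0 for 30 h against 20 h, 14 to 28 higher and 2 to 3 lower with the MEK inhibitor at 30 h, 9 to 46 higher and 0 to 1 lower with the PI3K inhibitor at 20 h, 71 to 76 higher and 2 to 3 lower at 30 h, 0 to 12 lower between the inhibitors at 20 h, and 22 to 55 lower and 0 to 1 higher at 30 h. Of 615 refits of single named genes, 513 kept their call, 100 lost it and 2 reversed. Of those that lost it, 40 of 47 were without the block and 24 of 43 in cells outside S and G2/M. Counts are the limit for RPL39L (0 to 103 UMIs a sum) and for the 0 h sum of library 2 (213216 UMIs).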
